A study of Mus musculus with 8 samples.

Results

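Telomerase adds repeats to chromosome ends, and Tert is its catalytic protein subunit. The gene Cdkn1a encodes p21, a protein that stops the cell cycle when DNA is damaged or cells become senescent. In obese visceral fat, macrophages gather around dying adipocytes, take up lipid and switch on a lysosomal programme marked by genes such as Trem2 and Gpnmb, and adipocyte genes are usually lower. The comparison described here asks whether the catalytic activity of Tert, made from the p21 locus, changes the RNA of visceral fat on a high-fat diet (HFD). It set 2 mice labelled p21+/mCherry-Tert (Tert HFD, rep134 and rep136) against 2 labelled p21+/mCherry-TertCi (TertCi HFD, rep138 and rep140), which is 4 of the 8 libraries of the series. Members were taken from the sample titles. The labels do not spell out TertCi, which is understood here, as background, to be a catalytically inactive Tert.

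All 8 mice carried mCherry, a red fluorescent protein, at 1 copy of the p21 locus, with a plus sign for the other copy in the genotype labels. The other groups were p21+/mCherry mice on a standard diet (mCherry SD, 2 mice) and on the high-fat diet (mCherry HFD, 2 mice). The series' design text speaks of the stromal vascular fraction and of p21+/- mice, and the sample labels were followed instead. Neither age nor sex was taken from the labels. Nuclei from snap-frozen visceral white adipose tissue were stained with DAPI, sorted by flow cytometry, and their RNA was counted per droplet as unique molecular identifiers (UMIs, 1 per captured molecule). Each library was then summed over barcodes with at least 1000 UMIs and at most 5% mitochondrial UMIs.

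Depth differed strongly between the 4 libraries. Kept barcodes numbered 13202 in Tert HFD rep134, 3234 in Tert HFD rep136, 13728 in TertCi HFD rep138 and 5142 in TertCi HFD rep140. They held 59689635, 7910063, 50630646 and 20468532 UMIs in that order, so rep136 was the shallowest library of the comparison. The mitochondrial limit removed no barcode, and at most 0.699% of a library's barcodes were shared with another library. The share of UMIs on Rn18s-rs5, a ribosomal RNA feature, was 1.11% and 8.76% in the Tert mice and 3.37% and 5.54% in the TertCi mice, so the groups overlapped. Markers of adipocytes, macrophages, stromal progenitors and endothelial cells were all tested and none of these lists was missing, as the tissue label calls for.

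Both Tert constructs sit at Cdkn1a. The 250 bases before the second of its annotated start sites are shown because the locus, by the genotype labels, carries both constructs. This window was chosen after the search below, since it holds the GC boxes and a TATA match on the gene's own strand. The window before the first start site held no GC box and only 1 TATA match, on the minus strand. The sequence comes from RefSeq (GRCm38.p6, chr17:29093519-29093768, plus strand), which is not the build named in the submitters' processing notes, and no other coordinate is given. Capitals mark the GC box GGGCGG and the TATA letters TATAA, searched on both strands, and none of these matches overlaps another.
Cdkn1a: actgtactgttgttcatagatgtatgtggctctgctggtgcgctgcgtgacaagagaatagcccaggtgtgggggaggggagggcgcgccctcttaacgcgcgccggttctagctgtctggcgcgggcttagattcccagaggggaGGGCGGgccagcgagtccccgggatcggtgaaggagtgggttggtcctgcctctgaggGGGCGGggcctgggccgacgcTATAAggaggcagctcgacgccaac
Of 32851 windows of this length in the table, 32.7% held the GC box, 16.7% held it at least 2 times and 22.8% held the TATA letters. A match of letters is a description and not a binding site.

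Neither Cdkn1a nor Tert RNA passed the test between the groups, and the limits on their differences were wide. Levels are given throughout as CPM, the usual count of a gene relative to the scaled UMI total of its library, and differences as log2 of Tert over TertCi with a 95% interval from edgeR's quasi-likelihood fit. Cdkn1a stood at 6.48 and 3.43 CPM in the Tert mice and at 5.84 and 4.25 CPM in the TertCi mice. The groups overlapped, and the log2 difference was 0.022 (95% interval -0.82 to 0.87). The far end of that interval, called the fold bound below, was 1.82-fold. Bounds depend on the setting, and for Cdkn1a they ran from 1.67 to 2.85-fold over the 20 settings tried. For scale, the change of Cdkn1a between mCherry SD and mCherry HFD was 2.22 on the log2 scale (edgeR adjusted p = 0.00433).

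The Tert feature stood at 2.19 and 1.64 CPM in the Tert mice and at 2.51 and 2.91 CPM in the TertCi mice, with both Tert libraries below both TertCi libraries. The rep136 value rests on 11 UMIs. The log2 difference was -0.45 (95% interval -1.16 to 0.26), so the bound was 2.23-fold. The mCherry mice, which carry no Tert construct by their labels, showed 2.73 to 3.97 CPM, so RNA assigned to Tert was no higher in the mice with a construct. The mCherry feature had 2 UMIs in each of rep134 and rep138. It had 0 of 7910063 UMIs in rep136 and 0 of 20468532 in rep140, which allow up to 0.379 and 0.147 CPM (unscaled, 3 counts, counting error only). Neither feature therefore checks the genotypes, and the groups rest on the labels.

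Across the transcriptome no gene passed the test. Of 22678 genes tested, 0 (0%) were called between Tert and TertCi by edgeR's quasi-likelihood test at a Benjamini-Hochberg adjusted p of 0.05, and the smallest adjusted p was 0.818. Before adjustment 1365 genes (6.02%) had a p under 0.05, and Tert was the higher group for 777 (3.43%) and the lower for 588 (2.59%). DESeq2 called 22 of the same genes, limma-voom called 0, and edgeR without the filter on low counts called 270 of 39955 genes. The Tert and TertCi libraries did not overlap for 7342 genes (32.4%), 16.2% in each direction. With 2 mice in each group an exact permutation test of any one value cannot give a two-sided p below 0.333. The labels give 2 mice per processing batch, as many as a group holds. They do not say whether littermates or processing batches separate the groups.

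The data bound the differences more firmly for well-detected genes. The 95% interval lay within 2-fold for 9998 genes (44.1%), within 1.5-fold for 4338 (19.1%) and within 4-fold for 17763 (78.3%). As a formal test of equivalence within 2-fold, 9619 genes (42.4%) passed at an adjusted p of 0.05 in the same edgeR fit. The median fold bound was 4.90 for genes under 1 CPM, 2.49 between 1 and 5 CPM and 1.78 between 5 and 20 CPM. It was 1.49 between 20 and 100 CPM and 1.46 above 100 CPM, where 90.1% of genes lay within 2-fold and 99.7% within 4-fold. Below 1 CPM only 0.0319% of genes were bounded within 2-fold. A Tert-TertCi difference of 2-fold was thus outside the interval for most genes above 5 CPM and inside it for nearly all genes below 1 CPM. These intervals use 1 spread shared by all 4 groups, although the 2 Tert mice differed more than any other pair of a group. Over genes of at least 20 CPM, 3.91% differed by more than 2-fold between the Tert mice, against 0.735% to 1.46% in the other pairs. The bounds may therefore be too narrow, and bounds with a separate spread were not computed.

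**Figure D1:**
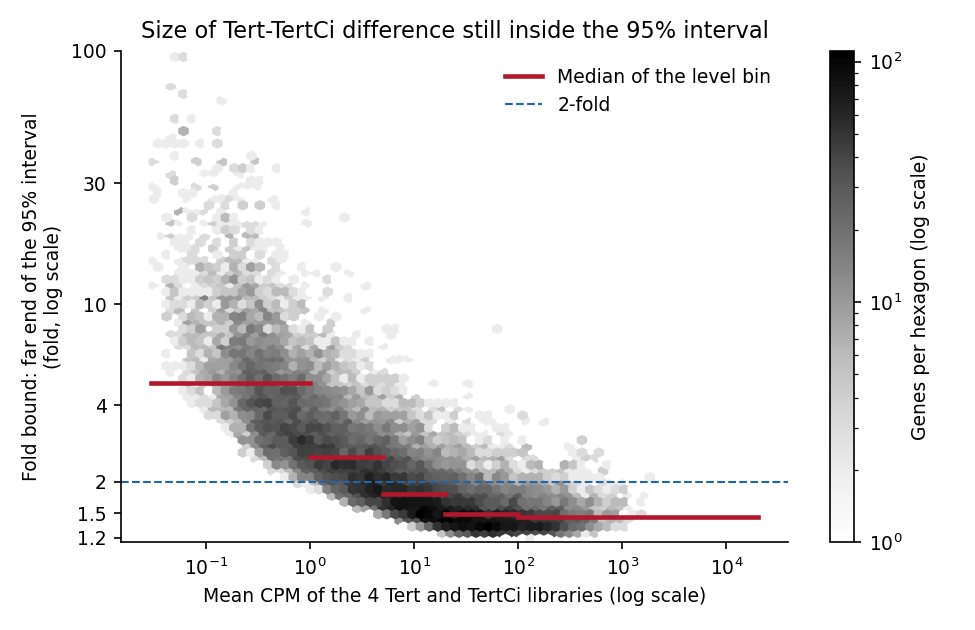
Fold bound of each gene (y axis, far end of the 95% interval of the Tert-TertCi difference, log scale) against its mean CPM in the 4 libraries (x axis, log scale). Grey hexagons count genes, red lines are medians of 5 level bins and fall from 4.90 to 1.46, the dashed line is 2-fold, and genes beyond the axis are not drawn.

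Libraries of a group differed from each other about as much as the groups did. Over 6528 genes of at least 20 CPM, the median absolute log2 ratio was 0.257 between the 2 Tert mice and 0.143 between the 2 TertCi mice. The 4 pairs of a Tert and a TertCi mouse ran from 0.147 to 0.222, all below the distance between the 2 Tert mice. The smallest of them joined Tert HFD rep136 and TertCi HFD rep140. From the mCherry HFD libraries the Tert mice were 0.264 to 0.512 apart and the TertCi mice 0.379 to 0.489. From the mCherry SD libraries the Tert mice were 0.192 to 0.311 and the TertCi mice 0.179 to 0.222 apart, a range that overlaps that of the Tert-TertCi pairs. By the same measure the mCherry SD and mCherry HFD libraries were 0.426 to 0.590 apart, while the mCherry HFD pair differed by 0.125 and the mCherry SD pair by 0.210.

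**Figure D2:**
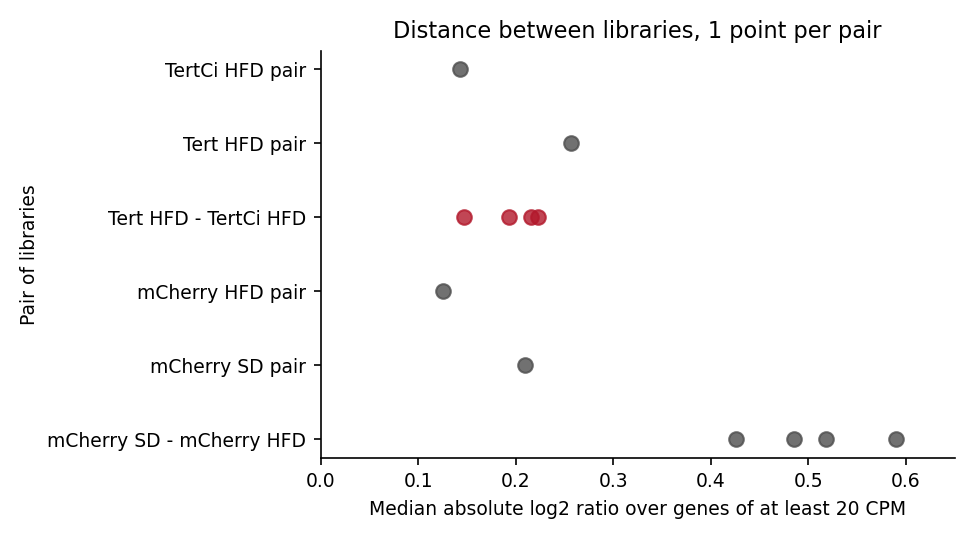
Median absolute log2 ratio over genes of at least 20 CPM (x axis), with 1 point for each pair of libraries (y axis, type of pair). The 4 Tert-TertCi pairs lie between 0.147 and 0.222, below the pair of Tert mice at 0.257 and below every pair of an mCherry SD and an mCherry HFD mouse.

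The change between diets gives a scale for these bounds. The mCherry libraries enter the Tert-TertCi difference only through the filter on low counts, the scaling and the shared estimate of spread. Between mCherry SD and mCherry HFD 8842 of 22537 genes (39.2%) passed edgeR's test. Passing that test took a diet change that was large against the same spread that sets the Tert-TertCi interval. The shares bounded below the diet change, here and in the lists below, were thus partly fixed by this choice of genes. For 7418 of the 8842 genes (83.9%) the whole Tert-TertCi interval was smaller than the diet change. Leaving out single mice lowered this count to between 3334 and 6355. The number of diet-called genes bounded below their diet change was 3334 without mCherry HFD rep128, 4660 without TertCi HFD rep138, 4677 without mCherry SD rep144 and 4802 without Tert HFD rep134. The genes called with diet were determined anew for each left-out mouse, so the total behind each of these counts changed as well. With all mice, of the 3634 diet-called genes that changed by at least 4-fold, 3183 (87.6%) were bounded below their diet change. The 5 with the largest diet change among them were Gm8451, Rab9b, Gm44424, 4930471E19Rik and Gm17638. These are scarce RNAs, and their fold bounds ran from 2.91 for 4930471E19Rik to 24.2 for Gm8451. Gm8451, Gm44424 and Gm17638 stood at no more than 0.0536 CPM in either mCherry SD library. Rab9b stood at no more than 0.00699 CPM in either mCherry HFD library. The size of the diet change of these genes, and so their rank, rests on counts near 0. Over the settings that tested them, the Gm8451 bound ran from 10.1 to 369-fold and the Rab9b bound from 3.34 to 5.93-fold. Whether each stayed below its diet change in every setting was not counted. The gene 4930471E19Rik stood at 3.23 and 1.64 CPM in the Tert mice and at 1.65 and 1.40 CPM in the TertCi mice, against 47.9 and 38.9 CPM in mCherry HFD. Rab9b, a small GTPase gene, stood at 0.419 and 0.447 CPM in Tert and at 0.720 and 0.726 CPM in TertCi, with a fold bound of 3.53.

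Estimates leaned in the direction of the diet change, and this rested on Tert HFD rep134. Of 4907 genes higher in mCherry HFD, 3800 (77.4%) had a higher estimate in Tert than in TertCi. For 83% of them the interval was smaller than the diet change, 397 (8.09%) were higher in Tert at an unadjusted p under 0.05, and 18 (0.367%) were lower. Of 3935 genes lower in mCherry HFD, 951 (24.2%) had a higher estimate in Tert and 75.8% a lower one. The interval was smaller than the diet change for 85.1% of these, 417 (10.6%) were lower in Tert at an unadjusted p under 0.05, and 16 (0.407%) were higher. Without Tert HFD rep134 the shares with an estimate in the diet direction were 35.4% and 49.9%, and without Tert HFD rep136 they were 87.2% and 86.9%. The genes are not independent of each other, so these shares carry no test.

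Among genes of at least 20 CPM whose groups did not overlap, the smallest p-values fell on the following 12, 6 in each direction, none of which was called (edgeR adjusted p = 0.818 for each). Tsc22d3 encodes GILZ, a leucine zipper protein induced by glucocorticoids. It stood at 166 and 195 CPM in the Tert mice and at 424 and 356 CPM in the TertCi mice. The TertCi mice were the highest of all 8, since mCherry SD had 234 and 208 CPM and mCherry HFD 75.4 and 64.3 CPM. The log2 difference was -1.11 (95% interval -1.49 to -0.73).

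In the other 5 lower genes, too, both Tert mice lay below both TertCi mice, because the rule picked only such genes. Tmem181b-ps, a pseudogene whose reads may be shared with its parent family and whose level is therefore uncertain, stood at 18.7 and 20.0 CPM in Tert and at 46.4 and 36.2 CPM in TertCi. Ankef1, which encodes an ankyrin repeat protein, stood at 235 and 252 CPM against 510 and 434 CPM. The non-coding or predicted gene Gm16168 stood at 272 and 283 CPM against 590 and 442 CPM. For Ankef1 the highest of the 8 libraries was an mCherry SD mouse, at 548 CPM. Gm30173 (log2 -1.05, 95% interval -1.48 to -0.63) and Pkd2l2, a gene of the polycystin family (log2 -0.88, 95% interval -1.25 to -0.50), completed the list.

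Among the higher genes, St18, a zinc finger transcription factor, stood at 195 and 194 CPM in Tert and at 110 and 96.9 CPM in TertCi (log2 0.91, 95% interval 0.52 to 1.29). H2-D1, a class I histocompatibility heavy chain with near-identical relatives that could share reads, stood at 69.7 and 60.1 CPM against 32.5 and 36.4 CPM (log2 0.92, 95% interval 0.53 to 1.31). The lysosomal genes Gpnmb and Atp6v0d2, the latter a subunit of the vacuolar proton pump, are among the macrophage markers. Gpnmb stood at 147 and 183 CPM against 89.6 and 90.9 CPM, and Atp6v0d2 at 159 and 233 CPM against 97.0 and 107 CPM. Zranb3, a DNA fork remodelling enzyme, stood at 40.7 and 56.1 CPM against 28.0 and 23.9 CPM. Gm14636 stood at 100 and 112 CPM against 58.0 and 66.8 CPM. Of the 12 genes, 11 leaned the way of their own diet change, the exception being Tmem181b-ps. DESeq2, run on the same counts, had 9 of the 12 among its 22 called genes. Over 20 settings of the analysis all 12 kept their sign. The 12 were picked for a small p and for groups that do not overlap, so neither result is independent support.

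**Figure D3:**
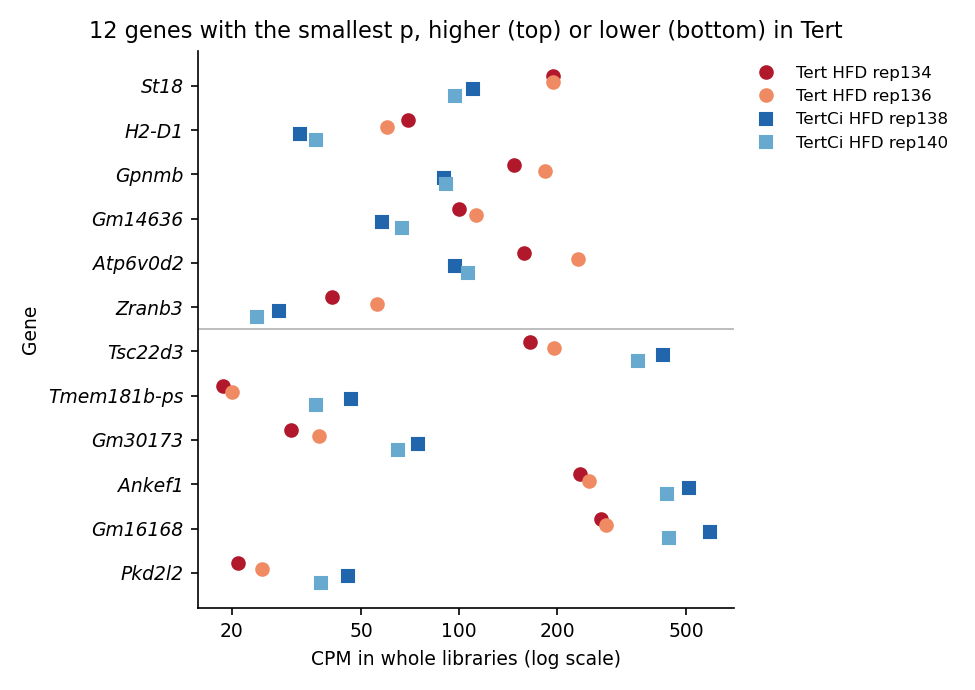
CPM (x axis, log scale) of the 12 genes in each library, circles for the Tert mice and squares for the TertCi mice. Only genes whose circles and squares do not overlap were picked. The pair of Tsc22d3 circles at 166 and 195 CPM lies below its squares at 356 and 424 CPM.

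The genes were then read in 16 lists, chosen with earlier results of these data known. Counts with all mice are set against the 6.02% of all genes at an unadjusted p under 0.05. Medians with all mice are set against the median log2 difference of 0.029 over all genes. Both values change with the setting. With each barcode thinned to 1000 UMIs the share over all genes was 3.90%, and it also changed with the mouse left out. The median over all genes was -0.073 without Tert HFD rep134. A list count from another setting can therefore move with the share over all genes and is not to be read against 6.02%. No list held a gene called by edgeR with the filter on low counts. DESeq2 called 2 lipid-associated macrophage genes, 1 secreted inflammatory gene and 1 adipocyte identity gene, and edgeR without the filter called members of 8 lists, with 8, 5 and 4 in those 3. In all, 135 of 279 distinct list genes were bounded within 2-fold and 249 within 4-fold.

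Telomerase and shelterin genes, which build and protect chromosome ends, had a median difference near 0. Of 17 tested members, 11 had a higher and 6 a lower estimate in Tert, 1 was at an unadjusted p under 0.05, and the median log2 difference was 0.082. It ran from 0.030 to 0.14 over the settings. Terf2, a shelterin protein that binds the repeats, stood at 54.6 and 57.1 CPM in Tert and at 59.6 and 62.5 CPM in TertCi, with a fold bound of 1.34. Pot1b, which covers the single-stranded end, stood at 78.1 and 72.5 CPM against 69.985 and 84.1 CPM, with a bound of 1.33. For both, the interval lay well inside 2-fold. Gar1, a protein of the telomerase RNA complex, had the smallest p of the list and a log2 difference of 0.60 (95% interval 0.04 to 1.17). In all, 12 of the 17 were bounded within 2-fold.

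Genes of the DNA damage response were bounded most tightly. Their median log2 difference was 0.00, 2 of 18 were at an unadjusted p under 0.05, and 14 were bounded within 2-fold. Atm, the kinase that senses double-strand breaks, stood at 45.2 and 41.2 CPM in Tert and at 42.8 and 43.0 CPM in TertCi. Its 95% interval of -0.29 to 0.31 log2 units kept it within 1.24-fold. Prkdc and Rad50, which act in break repair, were bounded within 1.29 and 1.28-fold. Brca1, a repair gene transcribed in dividing cells, had the smallest p of the list. It stood at 10.3 and 9.39 CPM against 5.31 and 5.08 CPM, and its log2 difference was 0.93 (95% interval 0.42 to 1.44).

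Targets of p53 and the inhibitors of cyclin-dependent kinases showed no common direction. Of 20, 10 had a higher and 10 a lower estimate in Tert, the median was 0.00, and 2 were at an unadjusted p under 0.05. Over the settings the median ran from -0.16, without Tert HFD rep136, to 0.11, and the number under 0.05 changed with the mouse left out. Sesn1 was bounded within 1.48-fold and Mdm2, the ligase that degrades p53, within 1.74-fold. Bax, which opens the mitochondrial membrane in apoptosis, stood at 20.6 and 30.7 CPM in Tert and at 11.6 and 15.6 CPM in TertCi (log2 0.90, 95% interval 0.34 to 1.47). The senescence gene Cdkn2a stood at 1.153 and 1.49 CPM against 1.05 and 0.615 CPM. Its fold bound of 3.47 shows how little the depth says about genes near 1 CPM.

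Cell cycle genes leaned one way, at low levels. All 20 had a higher estimate in Tert, 8 were at an unadjusted p under 0.05, and the median log2 difference was 0.62. Without Tert HFD rep134 the median was 0.32, 14 of 20 were higher and 1 was under 0.05, and the median ranged up to 0.86 over the settings. With TertCi HFD rep138 dropped, or with each barcode thinned to 1000 UMIs, 0 were under 0.05. Top2a, the topoisomerase of mitosis, stood at 9.27 and 5.07 CPM in Tert and at 3.04 and 3.97 CPM in TertCi (log2 1.09, 95% interval 0.38 to 1.80). Both Tert libraries were higher, and rep134 clearly the highest. Of the replication licensing factors, Mcm6 was bounded within 1.71-fold and Mcm7 within 1.72-fold. Only 2 of the 20 were bounded within 2-fold, and 12 of the 18 diet-called ones were bounded below their diet change.

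Lipid-associated macrophage genes had the highest number of low p-values of the 16 lists. Of 18, 17 had a higher estimate in Tert, 13 were at an unadjusted p under 0.05, and the median log2 difference was 0.66. The list overlaps the macrophage markers and was chosen with earlier results known, so its count is no independent evidence. Trem2, a lipid receptor that marks these cells, stood at 12.0 and 9.24 CPM in Tert and at 5.84 and 5.31 CPM in TertCi. Its log2 difference was 0.95 (95% interval 0.50 to 1.39). Cd63, a lysosomal membrane protein, stood at 21.9 and 22.96 CPM against 12.8 and 12.9 CPM (log2 0.80, 95% interval 0.48 to 1.13). The lysosomal proteases and the lectin followed the same pattern, with both Tert libraries above both TertCi libraries. Ctsb stood at 233 and 216 CPM against 162 and 168 CPM, and Lgals3 at 192 and 177 CPM against 114 and 118 CPM. Ctsd, an aspartyl protease, stood at 32.5 and 27.3 CPM against 15.9 and 13.6 CPM.

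The median of this list was 0.69 without Tert HFD rep134 and 0.72 without Tert HFD rep136, and over all settings it ran from 0.58 to 0.79. These differences were small beside those of the diet: Trem2 differed by 4.61 and Gpnmb by 5.83 log2 units between mCherry SD and mCherry HFD. For all 17 members called with diet, the Tert-TertCi interval was smaller than the diet change. Acp5, an acid phosphatase, was the one member with a lower estimate in Tert, at 7.34 and 5.37 CPM against 8.13 and 7.38 CPM. Of the 14 macrophage markers 12 had a higher estimate in Tert and none was at 0. Their summed level, unscaled, in kept barcodes was 3972 and 2097 CPM in Tert and 2462 and 2181 CPM in TertCi, so the groups overlapped. The part of macrophage number in the list was not tested.

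**Figure D4:**
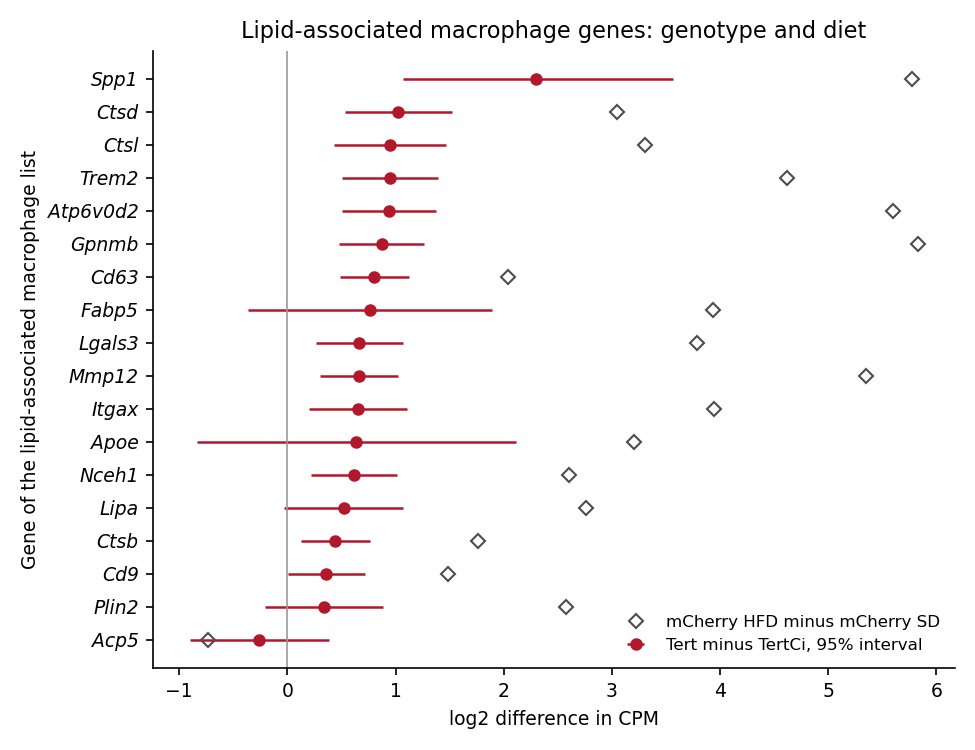
Log2 difference (x axis) of the 18 lipid-associated macrophage genes (y axis), with filled circles and bars for Tert minus TertCi and its 95% interval, and open diamonds for mCherry HFD minus mCherry SD. For 17 genes the bar ends short of the diamond, and Acp5 is the only circle below 0.

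Perivascular macrophage genes, which mark resident macrophages near vessels, were counted separately. Of 14, 11 had a higher estimate in Tert, none was at an unadjusted p under 0.05, and the median log2 difference was 0.25. F13a1, a clotting factor made by these cells, stood at 1398 and 869 CPM in Tert and at 1068 and 988 CPM in TertCi. Mrc1, the mannose receptor, stood at 693 and 444 CPM against 419 and 534 CPM. For both genes the groups overlapped, and the bounds were 1.68 and 1.74-fold. Cd209f had the smallest p of the list and a bound of 6.12-fold, which ran from 2.46 to 10.0-fold over the settings. The difference between this list and the one before was not tested. The median of the list was -0.26 without Tert HFD rep134, with 2 of 14 higher and 3 under 0.05. It was 0.54 without Tert HFD rep136, with 13 higher and 6 under 0.05.

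Secreted inflammatory genes were scarce in nuclei, and the data bound them loosely. Of 20, 16 had a higher estimate in Tert, 7 were at an unadjusted p under 0.05, the median log2 difference was 0.99, and none was bounded within 2-fold. Without Tert HFD rep134 that median was 0.43 and 4 were under 0.05, and with TertCi HFD rep138 dropped 3 were. Il1rn, the natural blocker of the interleukin 1 receptor, stood at 3.29 and 2.39 CPM in Tert and at 0.905 and 0.838 CPM in TertCi (log2 1.74, 95% interval 1.07 to 2.41). Ccl2, which attracts monocytes, stood at 15.8 and 9.24 CPM against 3.62 and 6.15 CPM. Mmp12, a macrophage elastase, was the best detected of the list, at 116 and 131 CPM against 85.5 and 70.1 CPM, with a bound of 2.03-fold.

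Targets of NF-kB had 3 of 14 genes at an unadjusted p under 0.05 and a median of 0.27. The median was 0.060 when Tert HFD rep134 was dropped and 0.44 when rep136 was. It was 0.17 in the absence of TertCi HFD rep138, with 0 under 0.05. Nfkb1 itself was bounded within 1.27-fold, at 251 and 221 CPM in Tert and 232 and 249 CPM in TertCi, and Cflar within 1.52-fold. Icam1, an adhesion molecule, had a log2 difference of 0.82 (95% interval 0.32 to 1.32). None of 19 interferon-stimulated genes was at an unadjusted p under 0.05, and their median was 0.23. Without Tert HFD rep134 the median was -0.10, with 8 of 19 higher, and without Tert HFD rep136 it was 0.48, with 18 higher and 4 under 0.05. It was 0.079 when TertCi HFD rep138 was dropped and 0.36 when rep140 was. Parp14 was bounded within 1.74-fold, Stat2 within 1.81-fold and Oas2 within 2.81-fold.

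Adipocyte identity genes had mostly lower estimates in Tert. Of 18, 16 were lower, 3 were at an unadjusted p under 0.05, and the median log2 difference was -0.27. It was -0.47 without Tert HFD rep136, -0.42 without TertCi HFD rep140, and -0.12 with 6 of 18 higher when each barcode was thinned to 1000 UMIs. Adipoq, the adiponectin gene, stood at 46.3 and 34.3 CPM in Tert and at 84.5 and 64.3 CPM in TertCi (log2 -0.88, 95% interval -1.48 to -0.28). Pde3b, the enzyme through which insulin restrains lipolysis, stood at 510 and 517 CPM against 1053 and 831 CPM (log2 -0.88, 95% interval -1.30 to -0.45). In both genes the Tert libraries lay below the TertCi libraries. Ghr, the growth hormone receptor, varied with the mouse instead, at 4011 and 8230.3 CPM in Tert and 8826 and 6972 CPM in TertCi. Cd36, a fatty acid transporter, was bounded within 1.57-fold and Lpl, a lipase, within 1.27-fold. Of the 16 members called with diet, 14 were bounded below their diet change.

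Lipid synthesis genes had a median of 0.12 and 2 of 16 at an unadjusted p under 0.05, and their direction turned with the mice included. With Tert HFD rep134 dropped, 13 of 16 were higher in Tert and the median was 0.51, and without Tert HFD rep136 0 of 16 were higher, 7 were under 0.05 and the median was -0.71. It was -0.23 without TertCi HFD rep138 and 0.50 without TertCi HFD rep140. Fasn, the fatty acid synthase, stood at 12.1 and 80.5 CPM in Tert and at 8.37 and 32.5 CPM in TertCi. Acaca, which supplies its substrate, stood at 219 and 641 CPM against 210 and 524 CPM. Within each group the second mouse was far above the first, and the groups overlapped, so the bounds were wide at 9.68-fold for Fasn and 2.98-fold for Acaca. Over the settings the Acaca bound ran from 1.46 to 5.33-fold. Dgat2 was bounded within 2.31-fold. Lpin1, a phosphatidate phosphatase, had a log2 difference of -0.63 (95% interval -1.13 to -0.14). All 12 members called with diet were bounded below their diet change.

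Adipogenic regulators had a median of -0.13, with 1 of 17 at an unadjusted p under 0.05. The median was 0.018 without Tert HFD rep134, with 9 of 17 higher, and -0.38 without Tert HFD rep136, with 5 under 0.05. It was -0.33 when TertCi HFD rep138 was dropped and -0.041 when rep140 was. Pparg, the master regulator of fat cell formation, stood at 669 and 1369 CPM in Tert and at 940 and 1611 CPM in TertCi, and its bound was 2.31-fold. Ebf1 was bounded within 1.93-fold. Klf15, a glucocorticoid-responsive factor, stood at 6.78 and 10.1 CPM against 12.98 and 13.7 CPM (log2 -0.69, 95% interval -1.24 to -0.13).

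Insulin signalling genes had a median of -0.20, with 14 of 18 lower in Tert and 4 at an unadjusted p under 0.05. With Tert HFD rep134 dropped the median was -0.079 with 2 under 0.05, and without Tert HFD rep136 it was -0.40 with 9. With TertCi HFD rep138 left out 1 was under 0.05. Foxo1, which insulin keeps out of the nucleus, stood at 268 and 404 CPM in Tert and at 541 and 504 CPM in TertCi. Pck1, an enzyme of glycerol synthesis that insulin represses, stood at 101 and 90.5 CPM against 199 and 131 CPM. Both genes lay lower in both Tert mice than in either TertCi mouse. Of the receptors, Igf1r was bounded within 1.30-fold and Insr within 1.52-fold. All 14 members called with diet were bounded below their diet change.

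Nuclear-encoded respiratory chain genes had 1 of 18 at an unadjusted p under 0.05 and a median of 0.067, and 14 were bounded within 2-fold. That median was -0.094 without Tert HFD rep134 and 0.17 without Tert HFD rep136. Sdha was bounded within 1.33-fold, Ndufs1 within 1.38-fold and Uqcrc2 within 1.44-fold. Extracellular matrix genes had 16 of 21 higher in Tert, 5 at an unadjusted p under 0.05 and a median of 0.27. The median was 0.11 with 3 under 0.05 when TertCi HFD rep138 was dropped, and 0.58 with 8 under 0.05 when rep140 was. Col5a2 was bounded within 1.73-fold, Fbn1 within 2.40-fold, and Timp1, an inhibitor of matrix proteases, stood at 1.48 and 1.49 CPM in Tert and at 0.514 and 0.671 CPM in TertCi. Targets of Wnt had 1 of 13 tested members at an unadjusted p under 0.05 and a median of -0.19. Dropping either Tert mouse gave -0.39 (rep134) and -0.40 (rep136), and dropping TertCi HFD rep140 gave -0.072. Tcf7l2 and Znrf3 were bounded within 1.64 and 1.51-fold. Apcdd1, a Wnt inhibitor, stood at 20.7 and 23.7 CPM against 45.1 and 35.3 CPM.

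Barcodes were next sorted by marker genes, each first thinned to 1000 UMIs. A barcode joined a class when that class led with at least 3 marker UMIs and at least 2 times the next class, so a class is a range of marker counts and not a proven cell type, and doublets were not removed. No share of the 4 main classes passed the test between Tert and TertCi (edgeR adjusted p = 0.999 for each). Adipocyte-marker barcodes made up 10.0% and 31.9% of kept barcodes in the Tert mice and 24.6% and 22.2% in the TertCi mice. The 2 Tert mice thus lay on either side of both TertCi mice. The log2 difference in this share was -0.16 (95% interval -1.54 to 1.22), a bound of 2.91-fold. It was 0.45 without Tert HFD rep134 and -1.22 without Tert HFD rep136, when the lone Tert mouse is taken to vary like the other groups.

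Macrophage-marker barcodes made up 32.9% and 20.5% in Tert and 20.6% and 25.5% in TertCi (log2 0.21, 95% interval -0.72 to 1.14, bound 2.21-fold). Without Tert HFD rep134 the difference was -0.17. Progenitor-marker barcodes were the steadiest class, at 24.6% and 21.1% against 23.1% and 22.6%, with a bound of 1.86-fold. Endothelial-marker barcodes made up 6.45% and 1.86% against 6.11% and 5.19%, with rep136 far below the other 3 mice and a bound of 4.84-fold. For scale, the adipocyte-marker share averaged 36.5% in mCherry SD and 2.13% in mCherry HFD, and the macrophage-marker share 11.8% and 50.8%.

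**Figure D5:**
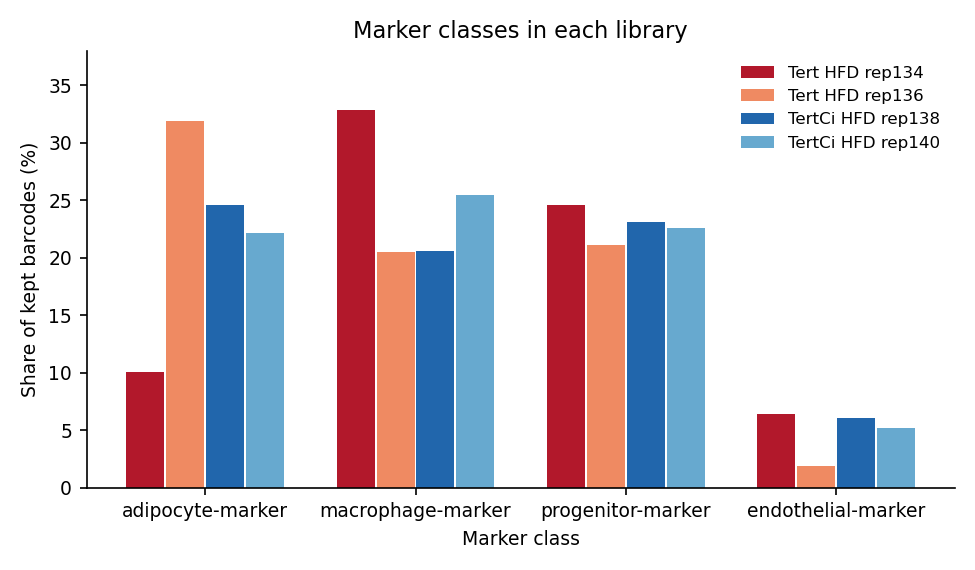
Share of kept barcodes (y axis, %) in each of the 4 marker classes (x axis), with 1 bar for each of the 4 mice. The adipocyte-marker bars of the 2 Tert mice, at 10.0% and 31.9%, lie on either side of both TertCi bars, and the progenitor-marker bars are all between 21.1% and 24.6%.

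Lymphocyte-marker barcodes were fewest in Tert HFD rep136, which had 2 T and NK-marker barcodes and 0 of 3234 B-marker barcodes, which allows a share of up to 0.0928%, counting error only. The other 3 mice had 92, 108 and 44 T and NK-marker and 54, 64 and 20 B-marker barcodes. Both sets of markers were detected in rep136 all the same, at a summed, unscaled 54.4 CPM for T and NK markers and 86.1 CPM for B markers, against 104 to 117 and 169 to 171 CPM in the other 3 mice. Of the 10 T and NK markers, 8 had a lower estimate in Tert in whole libraries. In bulk sums such as these, fewer cells of a type and less RNA per cell cannot be told apart.

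Within the marker classes no gene passed edgeR's test either, with the markers of each class left out of its fit. In adipocyte-marker barcodes 0 of 18611 genes (0%) were called, 976 (5.24%) were at an unadjusted p under 0.05, DESeq2 called 2, and 42.2% of genes were bounded within 2-fold. In macrophage-marker barcodes 0 of 15359 (0%) were called, 807 (5.25%) were at an unadjusted p under 0.05, DESeq2 called 5, and 51.7% were bounded within 2-fold. In progenitor-marker barcodes 0 of 15373 (0%) were called, 756 (4.92%) were at an unadjusted p under 0.05, DESeq2 called 1, and 52.6% were bounded within 2-fold. In endothelial-marker barcodes 0 of 7926 (0%) were called, 270 (3.41%) were at an unadjusted p under 0.05, DESeq2 called 0, and 44.9% were bounded within 2-fold. The endothelial class rests on 60 barcodes in rep136.

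Tsc22d3 had a lower estimate in Tert in all 4 classes. In adipocyte-marker barcodes it stood at 346 and 321 CPM in Tert and at 725 and 596 CPM in TertCi (log2 -0.99, 95% interval -1.36 to -0.61). In macrophage-marker barcodes it stood at 149 and 119 CPM against 336 and 227 CPM (log2 -1.05, 95% interval -1.51 to -0.60). In each case both Tert mice were lower. St18 stood in adipocyte-marker barcodes at 93.9 and 81.9 CPM against 40.9 and 38.2 CPM, and in progenitor-marker barcodes at 51.9 and 65.2 CPM against 26.7 and 20.8 CPM. In macrophage-marker barcodes, where its level was 434 and 502 CPM against 340 and 269 CPM, the log2 difference was 0.61. Macrophage markers were also found in barcodes under 500 UMIs, at a summed, unscaled 3599 and 2203 CPM in Tert and 2118 and 1997 CPM in TertCi, close to their level in kept barcodes. How much of the St18 RNA in the other classes comes from free RNA was not tested. H2-D1 in adipocyte-marker barcodes stood at 54.5 and 65.1 CPM against 25.1 and 28.6 CPM.

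The remaining genes with the smallest p in each class were likewise not called by edgeR. In macrophage-marker barcodes Ide, the insulin-degrading enzyme, stood at 41.1 and 46.0 CPM in Tert and at 94.1 and 80.1 CPM in TertCi (log2 -1.03, 95% interval -1.40 to -0.66). Ikbke, a kinase of the interferon and NF-kB pathways, stood at 124 and 96.7 CPM against 50.8 and 54.0 CPM (log2 1.11, 95% interval 0.67 to 1.55). Bank1, a B cell adaptor also in the B marker list, stood at 341 and 299 CPM against 595 and 623 CPM. DESeq2 called these 3, together with Tsc22d3 and Zranb3. In progenitor-marker barcodes Cadm1, an adhesion molecule, had a log2 difference of 0.89 (95% interval 0.57 to 1.203), and Ms4a7, a macrophage gene, one of 1.71 (95% interval 1.07 to 2.37). In endothelial-marker barcodes Nr3c2, the mineralocorticoid receptor, had a log2 difference of -0.95, Slc45a4 one of -1.39 and Bmp6, a secreted growth factor, one of -0.94.

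The lipid-associated macrophage list had a median above 0 in all 4 classes, with 9 of 14 tested genes at an unadjusted p under 0.05 and a median of 0.50 in macrophage-marker barcodes. In adipocyte-marker barcodes 9 of 17 were under 0.05 and the median was 0.65. The counts were lower in progenitor-marker barcodes, with 6 of 18 and a median of 0.77, and in endothelial-marker barcodes, with 3 of 16 and a median of 0.64. Macrophage marker UMIs were also present in these 3 classes, and their part in the result was not tested. Of the 1000 UMIs of an adipocyte-marker barcode, macrophage markers made up 1.04 and 0.572 on average in Tert and 0.695 and 0.601 in TertCi. The groups overlapped in that class. In progenitor-marker barcodes macrophage markers made up 0.713 and 0.474 in Tert and 0.404 and 0.368 in TertCi. In endothelial-marker barcodes they made up 1.09 and 0.783 against 0.629 and 0.509. In both of these classes both Tert mice lay above both TertCi mice. Adipocyte identity genes that are not class markers had a median of -0.094 in adipocyte-marker barcodes, with 0 of 8 at an unadjusted p under 0.05. Cdkn1a in adipocyte-marker barcodes stood at 7.80 and 5.46 CPM in Tert and at 8.35 and 5.26 CPM in TertCi.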

How the data were processed

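Nuclear RNA of 8 libraries was analysed, 4 of them for the comparison. The other 4 served the estimate of spread, the filter on low counts, the scaling and the diet scale. The deposited values are UMI counts per feature and barcode, made by the authors with Cell Ranger 7.1.0 per the file headers. The submitters' processing notes name Cell Ranger 5.0.1, bcl2fastq 2.20.0 and the build mm39, and this difference was not resolved. The feature list held 56749 features. Counts were summed per library over barcodes with at least 1000 UMIs and at most 5% UMIs on the 37 mt- features, which gave 7910063 to 113644405 UMIs per library.

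Sums were filtered with filterByExpr, scaled by TMM and tested with edgeR 4.0.16 (quasi-likelihood, all 4 groups sharing the spread, Benjamini-Hochberg over all genes) in R 4.3.3. The 95% interval holds the null differences that the same F test did not reject at 0.05. Equivalence within 2-fold used 2 one-sided tests. Marker classes used 14 marker lists and barcodes thinned to 1000 UMIs. Shares were tested by edgeR on barcode numbers. The steps were tested on simulated data that had the same spread in every group. DESeq2 1.42.0, limma 3.58.1, other scalings, filters and left-out mice were alternatives. Python 3.11.15 with numpy 2.4.6, scipy 1.17.1, pandas 2.3.3 and matplotlib 3.10.9 did the rest.

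The comparison, markers, lists and the rule for named genes were chosen with earlier results of these data known. The rule names the locus genes, called genes, the 6 higher and 6 lower genes of at least 20 CPM with the smallest p and no overlap, per list the 2 genes of highest level and the 1 of smallest p, the 5 list genes with the narrowest interval, the 5 bounded genes of largest diet change, and per class the called genes or the 3 of smallest p. Adipoq, Ccl2, Cdkn2a, Trem2, Ctsd, Acp5, Fasn, Lpl and Insr were named after their values were seen. A few genes that the rule picks are not reported here. Genes of a list that share reads with relatives are uncertain. Nothing says that mice of a group came from separate litters, so p-values measure the spread between these mice. Libraries of a group differed beyond sampling noise (chi-square per degree of freedom 21.3 to 172), so none was a copy.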

Additional observations from a re-analysis of the deposited data

How the results depend on the processing

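No paired analysis was possible because the replicate numbers differ between the groups. Without the filter on low counts, edgeR called 270 genes in whole libraries (131 higher and 139 lower in Tert) and 78, 115, 100 and 2 in adipocyte-, macrophage-, progenitor- and endothelial-marker barcodes. That fit took the spread of each gene from the trend over expression level alone, with an infinite prior weight in place of 3.82 prior degrees of freedom. It thus made no allowance for genes that vary more between mice than others of their level. DESeq2 called 22 genes in whole libraries, 11 in each direction and all of them among the 270, and 2, 5 and 1 in the first 3 classes. Every other setting run on whole libraries with all mice called 0, and with each of the 8 mice left out in turn 0 were called, with 506 to 2094 genes at an unadjusted p under 0.05.

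Leaving out single mice, genes bounded within 2-fold numbered 7119 to 10158 and diet-called genes bounded below their diet change 3334 to 6355. Called genes numbered 0 to 2 in macrophage-marker barcodes (2 without Tert HFD rep134) and 0 to 5 in endothelial-marker barcodes (3 when rep136 was dropped and 5 when rep140 was). The genes called with diet were determined anew for each left-out mouse, so their total changed too. Leave-one-out log2 differences in share ran from -1.22 to 0.45 (adipocyte-marker), -0.17 to 0.51 (macrophage-marker), -0.11 to 0.11 (progenitor-marker) and -1.61 to 0.19 (endothelial-marker). The adipocyte-marker difference was 0.37 with TMM across classes, and the progenitor-marker difference was -0.094 at 2000 UMIs per barcode. The cause was not tested. The 12 named differences kept their sign in every setting, uncalled in 207 values and called in 21, all under DESeq2 or without the filter. The 12 genes were picked for groups that do not overlap, so leaving out a mouse could hardly turn a sign. Of the fold bounds of named genes, 126 values moved by at least 1 standard error of the difference and 969 by less. Depth limits all statements on genes under 1 CPM.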
